A study of Danio rerio with 16 samples.

Results

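The splicing regulators of muscle followed here in the hearts of zebrafish embryos at 48 hpf (hours post-fertilization) were the 10 genes rbfox1l, rbfox2, rbfox1, rbm24a, rbm24b, rbm20, mbnl1, mbnl2, celf1 and celf2. They were chosen by symbol, and 9 of the 10 were found among the 15419 genes of the count files. The symbol rbm20 was absent from both kinds of file, so nothing is said about its level. FPKM values (fragments normalized to gene length and sequencing depth) were given for 8 members, celf2 being the one with counts but no FPKM. All 9 members with counts passed the filter on low counts.

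The DKO (double knock-out) hearts were rbfox1l-/-; rbfox2-/- and the CTRL hearts came from sibling controls, both of the Tubingen strain and both carrying the myl7:GFP reporter, which marks cardiomyocytes. The study's methods speak of sibling controls where the deposited design text says wild type, and the genotypes of the siblings are not given. Each of the 8 DKO and 8 CTRL libraries came from a separate pool of hearts. Both mutant alleles, chb5 of rbfox1l and chb6 of rbfox2, are short germline deletions that shift the reading frame in every cell of the embryo, so the model is not limited to cardiomyocytes, and a transcript can still be made and counted. Reads on genes numbered 9321265 to 18783628 per DKO library and 8809208 to 12991978 per CTRL library. In a principal component analysis of all genes that passed the filter on low counts, the groups separated on the first component. CTRL 5 stood apart from the other libraries on the second.

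Rbfox proteins bind the motif UGCAUG in introns and raise or lower the use of the neighbouring exon according to the side on which they sit. In vertebrate heart and skeletal muscle they act beside Rbm24, which promotes inclusion of muscle exons, beside Rbm20, known mainly for repressing exons of titin and of calcium-handling transcripts, and beside the Mbnl and Celf families, which often pull the same exons in opposite directions as muscle matures. Many of the exons concerned lie in transcripts of the sarcomere, of calcium handling and of transcription factors such as Mef2.

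The study measured the targeted transcripts by quantitative RT-PCR with a primer pair for each, in whole embryos at a later stage than these hearts. It reported both transcripts reduced in DKO embryos, in words that give rbfox2 the greater fall. The oligonucleotides are shown because they define what was amplified from the 2 genes that the comparison turns on. In the GRCz12tu annotation, rbfox1l lies on chromosome 16 and rbfox2 on chromosome 6. No base is set in capitals.
rbfox1l forward: cgacgggacggagtctataa
rbfox1l reverse: gtcacttcctcctgcagctc
rbfox2 forward: gggtttgtgacgttcgagtc
rbfox2 reverse: gctgagactgtccccgttag

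Whether DKO hearts held less transcript of the targeted genes was asked first. Both did, and a difference between them in size was measurable. The level of rbfox1l, the muscle-enriched Rbfox paralog of fish, was 37.7 CPM (counts scaled to a common library total by TMM) in the lowest DKO library, 62.5 at the median and 93.8 in the highest, against 261, 426 and 666 CPM in CTRL. No DKO library came near the CTRL range. Expression averaged 64.0 ± 21.3 CPM in DKO and 441 ± 129 CPM in CTRL hearts (SD, n = 8 each), a log2 fold change of -2.78 with a standard error of 0.22 (edgeR quasi-likelihood test, Benjamini-Hochberg adjusted p = 7.30e-08). Residual rbfox1l stood at 0.145 of the CTRL level and rested on 422 to 1781 reads per DKO library, so the transcript was reduced and not lost. For the protein, the paper found neither Rbfox1l nor Rbfox2 in DKO hearts by immunostaining at a later stage, and called both alleles null. In bulk RNA, fewer cells of a type and less RNA per cell cannot be told apart. By imaging at the same stage, the paper reported similar cardiomyocyte numbers in DKO and control ventricles, with smaller cells in DKO. The share of cardiomyocyte RNA in the sequenced pools was not measured by that count.

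The more widely expressed paralog rbfox2 had 23.5, 29.8 and 39.6 CPM in the lowest, median and highest DKO library, against 47.6, 81.3 and 154 CPM in CTRL. Again the groups did not overlap, with the highest DKO library under the lowest CTRL library. DKO libraries were much more alike (30.4 ± 4.82 CPM) than CTRL libraries (89.2 ± 35.8 CPM, n = 8 each). The log2 fold change was -1.55 with a standard error of 0.20 (edgeR adjusted p = 1.35e-05), which left rbfox2 at 0.342 of the CTRL level. CTRL 5 had the highest rbfox2 level, and without it the log2 fold change was -1.39 (adjusted p = 8.54e-06). These counts cover the whole transcript and check its abundance, not the short deletions.

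In these hearts the deficit was larger for rbfox1l than for rbfox2. The paper's quantitative RT-PCR in whole embryos reads in the opposite order, with a smaller fall of rbfox1l than here. The measures differ in tissue, stage and method. Reads of rbfox1l outnumbered those of rbfox2 by 2.02-fold in DKO and 5.09-fold in CTRL hearts (geometric means over 8 libraries each). As a log2 ratio within each library this was 1.01 ± 0.59 in DKO and 2.35 ± 0.85 in CTRL hearts, a difference of -1.33 with a standard error of 0.36 (two-sided exact permutation test, p = 0.00357, adjusted over 4 paralog ratios p = 0.0143). In 6 of 8 DKO libraries the ratio was below the lowest CTRL value. A ratio of this kind does not depend on how libraries are scaled, but it can depend on the mix of cells in a pool. By immunostaining of embryonic hearts, the paper found Rbfox1l protein in cardiomyocytes only and Rbfox2 also in endocardium. The part of cell composition in this difference was not tested.

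The remaining member of the family, rbfox1, known in mammals mainly from brain and muscle, had few counted reads. It had 11 to 53 reads per DKO library and 13 to 87 per CTRL library, and its CPM ranges of 1.19 to 4.82 in DKO and 1.51 to 7.57 in CTRL overlapped in all but 1 DKO library. The log2 fold change of -0.63 did not pass the test (95% interval -1.33 to 0.077, edgeR adjusted p = 0.187). An increase in rbfox1 beyond 0.077 on the log2 scale lay outside this interval, whereas a moderate decrease could not be detected at this depth. The FPKM of rbfox1 used a length of 89.6 kb, against a GRCz12tu span of 446 kb. Whether the counted annotation covers the whole gene was not tested.

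**Figure D1:**
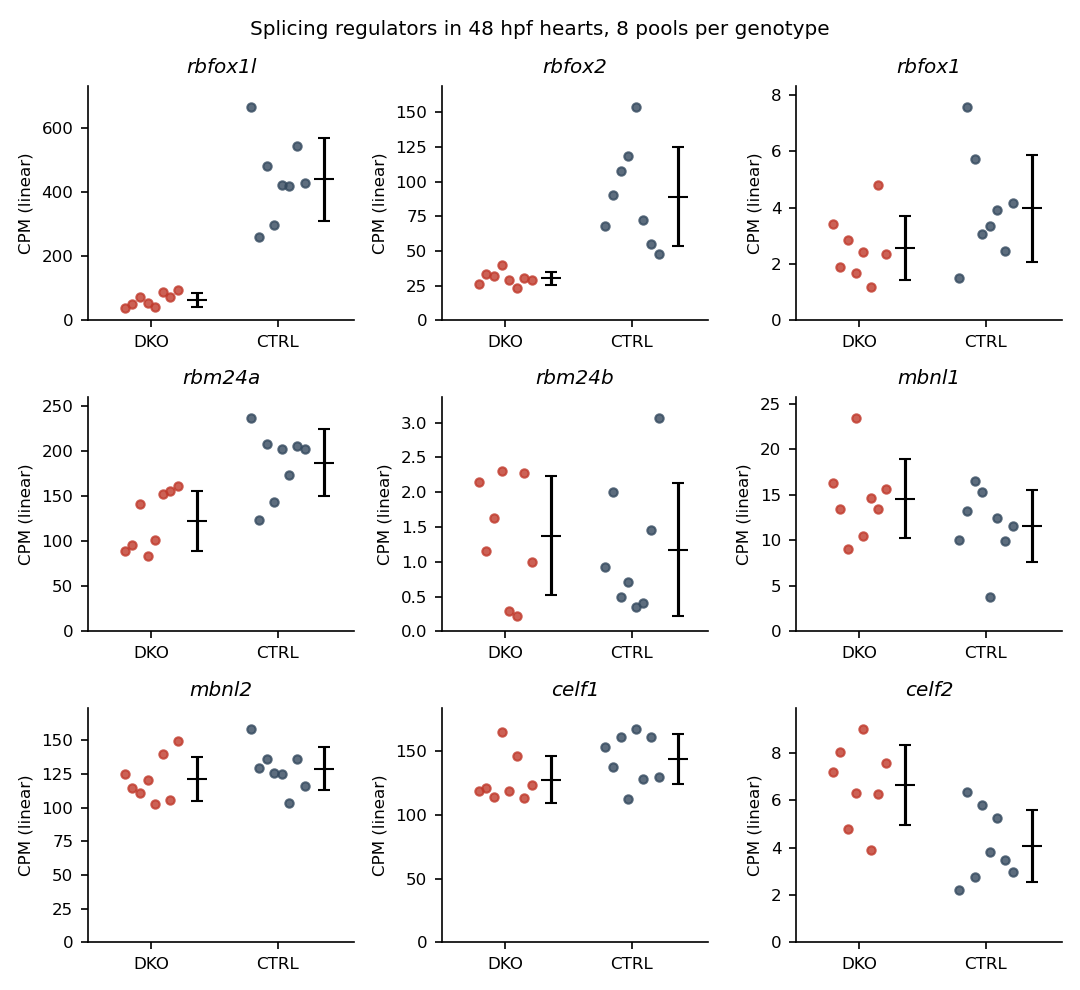
Each panel shows 1 member in CPM on a linear axis from 0, with a point for each of the 8 DKO (red, left) and 8 CTRL (blue, right) libraries and the mean with its SD beside them. The DKO points of rbfox1l and rbfox2 lie entirely below the CTRL points, those of rbm24a lie below in part, and those of mbnl2 and celf1 share the CTRL range.

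Of the 9 members tested, 3 fell in DKO hearts (rbfox1l, rbfox2 and rbm24a), 1 rose (celf2) and 5 did not pass the test at an adjusted p under 0.05. Over all 11750 genes tested, 13.9% were called lower and 13.2% higher. Without the targeted genes, 1 of 7 members was called in each direction, which is close to those shares. The rule of the study's methods also asks for a change over 1.5-fold and an FPKM over 5 in at least 1 library. By that rule rbfox1l and rbm24a were called lower, that is 2 members, where 4.66% of all genes tested were called lower. By the same rule 0 members were called higher, also with DESeq2 or an unadjusted edgeR p, beside 390 of the 11750 genes tested. Only 3 members had an FPKM over 5. Without an FPKM, celf2 could not be called by the rule whatever its change, so the 0 says little. The decrease of rbfox2 passed the p and fold thresholds, but its highest FPKM was 2.88. The 2 members whose groups did not overlap were the targeted genes themselves, against a share of 4.38% of all genes with every DKO library below every CTRL library. The median log2 fold change of the 9 members was -0.17, beside 0.025 over all genes tested.

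Rbm24 proteins bind RNA and promote inclusion of muscle exons, and in vertebrates rbm24a is expressed in heart and somites. It had 83.2, 122 and 161 CPM in the lowest, median and highest DKO library, against 124, 203 and 237 CPM in CTRL. Seen after the fact, the DKO libraries fell into 2 sets of 4: DKO 1, 2, 4 and 5 had 83.2 to 102 CPM, below every CTRL library, whereas DKO 3, 6, 7 and 8 had 142 to 161 CPM, inside the CTRL range. Expression averaged 123 ± 33.0 CPM in DKO and 187 ± 37.2 CPM in CTRL hearts (SD, n = 8 each), with a log2 fold change of -0.61 and a standard error of 0.16 (edgeR adjusted p = 0.00701). The fall was just past 1.5-fold, and the call by the study's rule was lost in turn without CTRL 1, CTRL 3, DKO 1, DKO 2, DKO 4 or DKO 5 (log2 fold change down to -0.54), although the adjusted p stayed under 0.05, at most 0.0167, in all 16 such fits.

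Cardiomyocyte markers also fell in DKO hearts, as rbm24a did. Of 21 cardiomyocyte markers tested, none of them a splicing regulator, 14 fell and 0 rose, with a median log2 fold change of -0.87, and their summed level was 6850 to 16349 CPM in DKO and 15778 to 30751 CPM in CTRL libraries. The largest falls were those of mb (myoglobin, -2.94) and csrp3 (a muscle LIM protein, -2.10), on the log2 scale. When libraries were scaled on these markers, the sign of the rbm24a value turned, to 0.27 with a standard error of 0.16 (edgeR adjusted p = 0.125), and scaling on the endocardium and endothelium markers gave -0.022 (adjusted p = 0.880). Those scalings moved the median of all genes to 0.97 and 0.66, from 0.025 in the first fit. Relative to that median, rbm24a stood at -0.70 and -0.68, compared with -0.63 in the first fit. A scaling shifts nearly all genes alike, so a value relative to the median returns near the first fit by construction. It is no separate check of the change. Its level per cardiomyocyte was not measured.

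The same scalings left rbfox1l lower, at -1.90 on the cardiomyocyte markers (adjusted p = 2.87e-08) and -2.20 on the endocardium and endothelium markers (adjusted p = 2.72e-10). For rbfox2 the value was -0.61 on the cardiomyocyte markers, which no longer passed (adjusted p = 0.0654), and -0.93 on the endocardium and endothelium markers (adjusted p = 0.00634). Relative to the median of all genes, rbfox2 stood at -1.58 under both, compared with -1.57 in the first fit, again close by construction. Of the 23 endocardium and endothelium markers, 12 fell and 3 rose, with a median log2 fold change of -0.48 and sums of 1492 to 2752 CPM in DKO and 2172 to 3250 CPM in CTRL libraries. Their largest falls were in esama (-1.57, an endothelial adhesion molecule) and notch1b (-1.54, a Notch receptor of the endocardium), and their largest rises in flt4 (1.74, a receptor for vascular growth factors) and aplnrb (1.08, an apelin receptor).

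**Figure D2:**
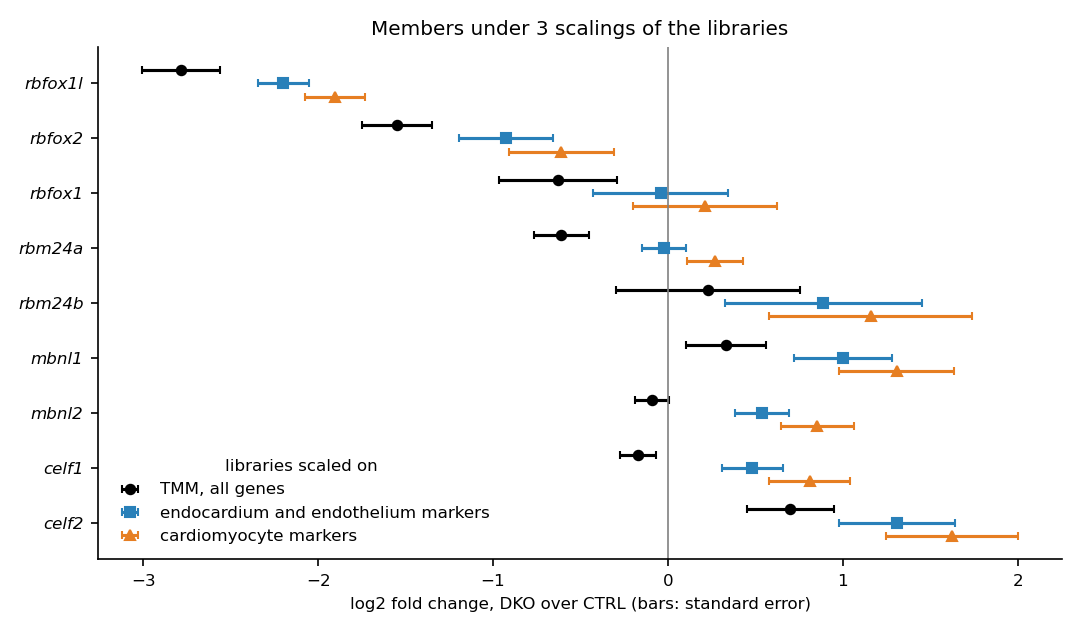
The log2 fold change, DKO over CTRL, of the 9 members is shown with its standard error when libraries were scaled by TMM on all genes (black circles), on endocardium and endothelium markers (blue squares) or on cardiomyocyte markers (orange triangles). The marker scalings move all members to the right by a similar distance, rbfox1l stays below 0 under each, and rbm24a stands at -0.61, -0.022 and 0.27.

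Within the CTRL group, rbm24a and rbfox1l followed the cardiomyocyte markers closely from pool to pool. With the mean log2 CPM of the markers, rbm24a had a Pearson r of 0.930 (two-sided exact permutation test, p = 4.96e-05, adjusted over 38 relations p = 0.00188) and a Spearman rho of 1 (exact p = 4.96e-05, the smallest p these permutations can give). For rbfox1l the values were r = 0.972 (exact p = 0.000347, adjusted p = 0.00440) and rho = 0.976 (exact p = 0.000397). Without the 2 libraries farthest from the median marker level, r was 0.856 for rbm24a and 0.938 for rbfox1l. In contrast, rbfox2 had r = -0.309 (exact p = 0.444, adjusted p = 0.649) and rho = -0.381 (exact p = 0.360) across the same pools. With the endocardium and endothelium markers in these CTRL pools, rbm24a had r = 0.668 (exact permutation p = 0.0740, adjusted p = 0.216) and rho = 0.881 (exact p = 0.00724). For rbfox1l, r was 0.744 (exact p = 0.0329, adjusted p = 0.123) and rho 0.833 (exact p = 0.0154). The relation was therefore not shown to be particular to cardiomyocyte markers. All these levels were scaled by the same library totals, and the relations were computed after the values had been seen.

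Among DKO pools no correlation is given, because they formed the same 2 sets as for rbm24a. Correlations within DKO pools were computed and count among the 38 relations adjusted over. DKO 1, 2, 4 and 5 had mean marker levels of 6.79 to 7.12 (log2 CPM) and 37.7 to 53.3 CPM of rbfox1l, whereas DKO 3, 6, 7 and 8 had 7.60 to 7.90 and 71.7 to 93.8 CPM. The residual rbfox1l was thus higher in the pools with more cardiomyocyte transcript. The endocardium and endothelium markers split the same way, at 5.65 to 5.90 in the first set and 5.94 to 6.48 in the second. Epidermis markers went the other way, at 9.51 or more in the first set and 9.43 or less in the second. In DKO pools too, the relation was therefore not shown to be particular to cardiomyocyte markers. No such split was seen for rbfox2, which had 26.4 to 39.6 CPM in DKO 1, 2, 4 and 5 and 23.5 to 32.2 CPM in DKO 3, 6, 7 and 8.

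**Figure D3:**
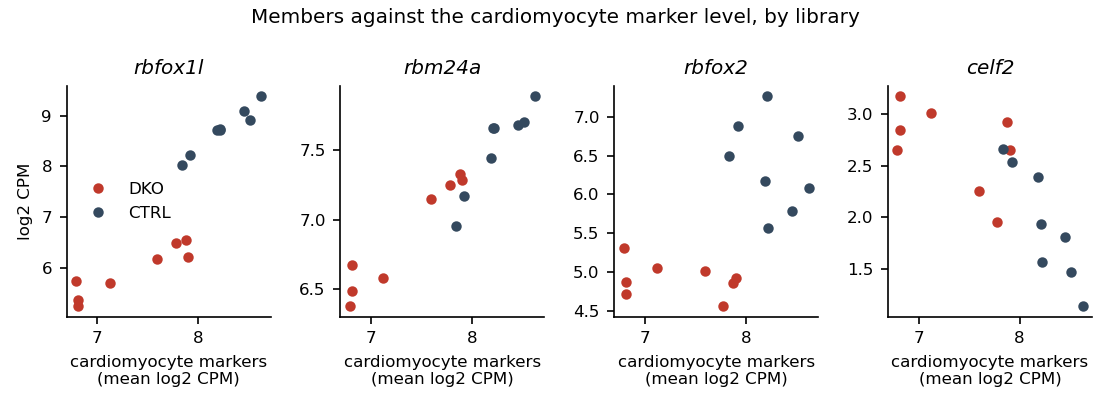
Log2 CPM of 4 members is plotted against the mean log2 CPM of the cardiomyocyte markers, with a point for each DKO (red) and CTRL (blue) library. The points of rbm24a from both groups lie along 1 band, and those of rbfox1l form 2 bands with DKO far below CTRL. For rbfox2 no clear slope is seen in either group, and the weak negative relation in CTRL (r = -0.309) did not pass.

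The genes whose deviations from their group means were most like those of rbfox1l over the 16 libraries were apln (Pearson r 0.949), which encodes the peptide apelin, sh3bgr (0.944) and myh7l (0.942), a myosin heavy chain gene, among 11749 other genes tested. The member nearest to rbfox1l was rbm24a (0.906) and the most opposite was celf2 (-0.733). The genes most like rbfox2 were ildr1a (0.833), sp3a (0.821), a zinc-finger transcription factor of the Sp family, and rbm14b (0.815), an RNA-binding protein. Between rbfox1l and rbfox2 the value was -0.298. These numbers describe likeness only, and the 2 sets of DKO pools enter each of them.

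The paralog rbm24b was close to the limit of detection, with 2 to 46 reads per DKO library and 3 to 30 per CTRL library. Its CPM of 0.216 to 2.30 in DKO and 0.348 to 3.06 in CTRL overlapped almost completely. The log2 fold change of 0.23 had a 95% interval of -0.86 to 1.32 (edgeR adjusted p = 0.801), which left both a decrease and an increase of more than 1.5-fold possible. The log2 ratio of rbm24a to rbm24b was 6.75 ± 1.38 in DKO and 7.58 ± 1.16 in CTRL hearts, a difference of -0.83 with a standard error of 0.64 that did not pass (exact permutation test, p = 0.211, adjusted p = 0.211).

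Mbnl proteins, which bind YGCY motifs and favour mature splice forms, showed no change that passed. Expression of mbnl2 was 103, 118 and 150 CPM in the lowest, median and highest DKO library, against 104, 128 and 158 CPM in CTRL. The groups covered almost the same range, and the log2 fold change was -0.089 with a 95% interval of -0.29 to 0.11 (edgeR adjusted p = 0.563). The sign turned with library totals alone (0.058) and on the endocardium and endothelium and the cardiomyocyte markers (0.54 and 0.85), scalings that move all genes alike. Relative to the median of all genes mbnl2 stayed between -0.12 and -0.11 under each, which follows from such a shift. For mbnl1 the values were 9.06, 14.1 and 23.4 CPM in DKO, against 3.83, 12 and 16.5 CPM in CTRL. Only DKO 4 lay above the CTRL range, and CTRL 5 was the lowest of all libraries, without which the log2 fold change was 0.20. Over all libraries it was 0.33 with a 95% interval of -0.15 to 0.81 (adjusted p = 0.322). The log2 ratio of mbnl1 to mbnl2 was -3.09 ± 0.36 in DKO and -3.56 ± 0.68 in CTRL hearts (difference 0.47, standard error 0.27, exact permutation p = 0.0982, adjusted p = 0.131).

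Celf proteins bind GU-rich sequences and are best known for opposing Mbnl proteins in developing muscle. Expression of celf1 was 113, 120 and 164 CPM in the lowest, median and highest DKO library, against 112, 145 and 167 CPM in CTRL. No DKO library lay outside the CTRL range, and the log2 fold change of -0.17 did not pass (95% interval -0.39 to 0.040, edgeR adjusted p = 0.233). On the marker scalings its sign turned, to 0.48 and 0.81, but relative to the median of all genes it stood at -0.18 and -0.16, compared with -0.20 in the first fit. In the GRCz12tu annotation celf1 overlaps nudt19, and since the strand setting of the counting is not given in the sources used here, reads of the overlap cannot be told apart.

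The only member that rose was celf2, a paralog known from mammalian brain and heart. It had 3.89, 6.75 and 9.0 CPM in the lowest, median and highest DKO library, against 2.21, 3.66 and 6.35 CPM in CTRL, from 36 to 144 and 19 to 73 reads. In 4 of 8 DKO libraries celf2 was above the highest CTRL library, and the other 4 lay within the CTRL range. It averaged 6.63 ± 1.69 CPM in DKO and 4.08 ± 1.53 CPM in CTRL hearts (SD, n = 8 each), a log2 fold change of 0.70 with a standard error of 0.25 (edgeR adjusted p = 0.0385). This call was weak. It was lost without any 1 of DKO 1, 2, 4, 5, 7 or 8 or of CTRL 1, 3, 5, 7 or 8 (adjusted p between 0.0170 and 0.0889 over the 16 fits).

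The ratio of celf1 to celf2 gave the same direction without any scaling. It rests on the same low celf2 counts, so it is not independent of the call above. Its log2 value was 4.29 ± 0.50 in DKO and 5.19 ± 0.68 in CTRL hearts, a difference of -0.91 with a standard error of 0.30 (two-sided exact permutation test, p = 0.0109, adjusted p = 0.0218), and 5 of 8 DKO libraries were below the lowest CTRL value. Within the CTRL group celf2 was lowest where cardiomyocyte markers were highest (r = -0.910, exact permutation p = 0.00188, adjusted p = 0.0137; rho = -0.976, exact p = 0.000397; r = -0.801 without the 2 farthest libraries). The part of cell composition in the rise of celf2 was not tested.

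**Figure D4:**
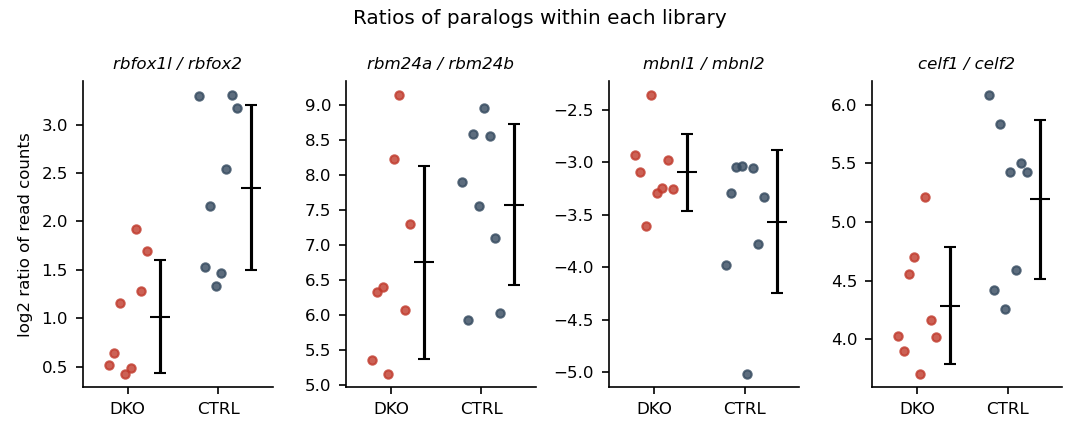
Log2 ratios of read counts of paralogs are shown for each of the 8 DKO (red, left) and 8 CTRL (blue, right) libraries, with the mean and SD beside the points. The ratio of rbfox1l to rbfox2 and that of celf1 to celf2 are lower in DKO hearts by 1.33 and 0.91, and the other 2 ratios overlap.

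Levels of different members can be set side by side only per length. For 6 of the 8 members the deposited FPKM used a length within 10% of the whole GRCz12tu gene span, introns included (18.4 kb for rbfox1l, 46.1 kb for rbfox2, 115 kb for mbnl2), so the order below also depends on intron length. The exceptions were rbfox1, with a length of 89.6 kb against a span of 446 kb, and mbnl1, with 110 kb against 85.0 kb. In DKO hearts the highest median FPKM was that of rbm24a (3.97), followed by rbfox1l (3.64), celf1 (3.63), mbnl2 (1.09), rbfox2 (0.699), mbnl1 (0.131), rbm24b (0.0722) and rbfox1 (0.0281). The ranges of the first 3 overlapped, and that of rbm24b overlapped those of mbnl1 and rbfox1, which were apart from each other. In CTRL hearts rbfox1l came first (23.0), apart from all the others, followed by rbm24a (5.51), celf1 (3.99), rbfox2 (1.81), mbnl2 (1.06), mbnl1 (0.108), rbfox1 (0.0381) and rbm24b (0.0378). There the ranges of rbm24a and celf1, of rbfox2 and mbnl2, and of the last 3 overlapped. By this FPKM, rbfox1l stood above every other member with a value in CTRL hearts. In DKO hearts its range overlapped those of rbm24a and celf1. In CPM, which is not divided by length, its DKO median was 62.5, against 122 for rbm24a and 120 for celf1.

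**Figure D5:**
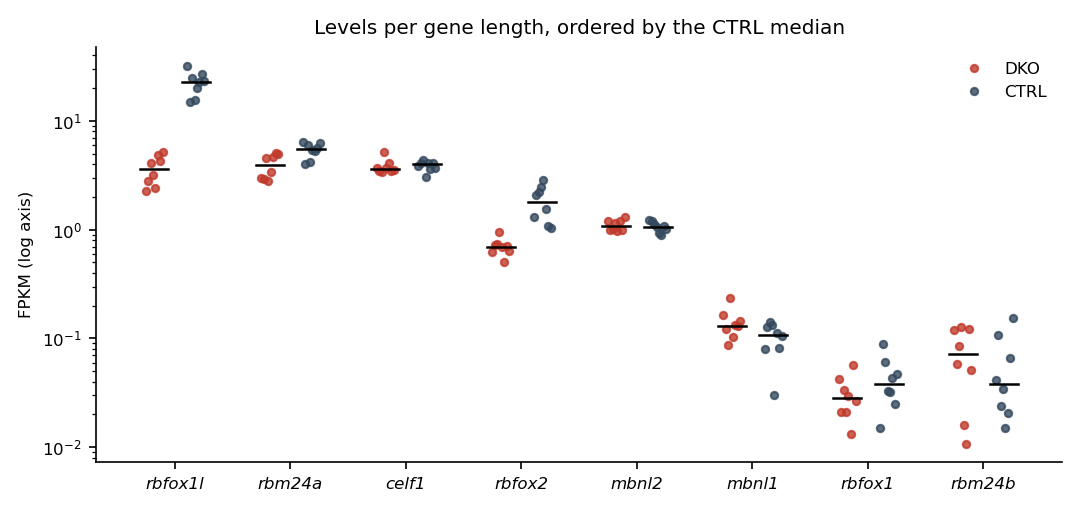
FPKM of the 8 members with a value is shown on a log axis for each DKO (red, left) and CTRL (blue, right) library, with a line at the median. In CTRL hearts rbfox1l stands above the other members shown at a median of 23.0, and in DKO hearts it lies at 3.64, near rbm24a and celf1. This order also depends on intron length.

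Close relatives of the members were examined as a list of 10 symbols, of which 5 were in the files and 4 were tested. Of these, celf4 fell, with 10.3 ± 3.80 CPM in DKO and 15.9 ± 3.23 CPM in CTRL hearts (log2 fold change -0.63, edgeR adjusted p = 0.0253). The others did not pass: rbm38, an Rbm24 relative, had a log2 fold change of 0.47 (adjusted p = 0.0560, past the threshold with DESeq2 alone), celf3a of 0.68 (adjusted p = 0.156) and mbnl3 of -0.043 (adjusted p = 0.911). celf5a was counted at 61 reads at most in a library and failed the filter. The neuronal paralogs rbfox3a and rbfox3b, along with celf3b, celf5b and celf6, were absent from the files.

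Other splicing regulators, not all of them restricted to a tissue, were mixed. Of 21 tested, 3 fell, 3 rose and 15 did not pass, with a median log2 fold change of 0.0089. These counts are close to the share of all genes tested that was called lower (13.9%) or higher (13.2%). The largest falls were in qki2 (-0.67, adjusted p = 0.0102), a Quaking gene, and rbpms2a (-0.58, adjusted p = 0.0446), an RNA-binding protein of heart muscle. The remaining fall, named after its value was seen, was ptbp2b (-0.37, adjusted p = 0.0182), a polypyrimidine tract-binding protein. The related rbpms2b had a log2 fold change of 0.080 that did not pass (adjusted p = 0.829).

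The 3 that rose belong to other tissues. They were elavl3 (1.72, adjusted p = 0.0323), a neuronal Hu protein, and the epithelial regulators esrp1 (1.55, adjusted p = 0.000206) and rbm47 (1.35, adjusted p = 0.00334), the last named after its value was seen. esrp1 averaged 134 ± 33.0 CPM in DKO and 46.0 ± 22.6 CPM in CTRL hearts (SD, n = 8 each). Epidermis markers moved the same way: 11 of 12 tested rose and 0 fell, with a median log2 fold change of 1.21. They were led by evpla (2.17) and ppl (1.75), 2 genes whose mammalian counterparts belong to the cornified envelope. Sums of the epidermis markers were 19116 to 40825 CPM in DKO and 5769 to 23810 CPM in CTRL libraries. Of 17 neuron markers tested 4 rose and 0 fell (sums of 323 to 468 CPM in DKO and 235 to 466 CPM in CTRL libraries), led by neurod4 (1.94), with elavl3 itself on that list. Their part in the rise of these regulators was not tested.

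Transcripts known from vertebrates as splicing targets of the members were examined for their total level only, since the counts do not separate isoforms. Of 9 tested, 4 fell, 1 rose and 4 did not pass, with a median log2 fold change of -0.67. Over all genes tested, 13.9% were called lower and 13.2% higher. The largest falls were in ldb3b (-1.51, adjusted p = 6.55e-05), a Z-disc adaptor, and mef2aa (-1.01, adjusted p = 0.000142), a Mef2 transcription factor. The rise was in camk2d1 (1.16, adjusted p = 0.00266), which encodes a calcium/calmodulin-dependent kinase, with 98.8 ± 25.6 CPM in DKO and 44.2 ± 22.3 CPM in CTRL hearts. Its paralog camk2d2 fell (-0.67, adjusted p = 0.0186), with 13.9 ± 4.79 CPM in DKO and 22.1 ± 6.17 CPM in CTRL hearts, and tnnt2a, cardiac troponin T, also fell (-0.93, adjusted p = 0.00343). Both were named after their values were seen. The cardiomyocyte markers described above fell as well, and cacna1c (-0.30, adjusted p = 0.320) is on both lists.

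The remaining marker lists were run on the same fit, in which 13.9% of all genes tested were called lower and 13.2% higher. Of 14 erythrocyte markers 13 fell, in each of them without overlap of the groups, with a median log2 fold change of -6.66, the largest falls being in hbbe1.1 (-7.86) and hbae3 (-7.70), both embryonic globins. Of 11 leukocyte markers 8 rose, led by lcp1 (1.09) and ncf1 (1.01), and 0 fell. Of 17 skeletal muscle markers 2 fell, ckmb (-0.98) and cacna1sb (-0.59), and 0 rose, and of 7 outflow tract and smooth muscle markers 3 fell, with fbln5 (-1.47) and tagln (-1.12) leading, and 0 rose. Sums of the skeletal muscle markers were 444 to 1019 CPM in DKO and 493 to 1796 CPM in CTRL libraries. Where a marker list had 0 genes in 1 direction, DESeq2 also called 0 there, and the edgeR fit had 0 at an unadjusted p under 0.05, apart from 1 skeletal muscle marker that was higher.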

How the data were processed

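RNA-sequencing of poly(A)-selected RNA from pooled hearts was analysed in 16 libraries, with groups from the sample labels. Reads were aligned by the authors with STAR 2.6.1a to GRCz11, and HTSeq 0.11.2 gave the raw counts per RefSeq gene that they deposited. The FPKM table is also theirs: the deposited FPKM fit a count over the library total times 1 constant length for each gene. Of all reads sorted, 59.6% to 65.6% per library fell on no gene and were left out.

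Counts were tested with edgeR 4.0.16 in R 4.3.3 (filterByExpr, TMM, robust quasi-likelihood F-test, DKO against CTRL, 11750 genes, Benjamini-Hochberg over all of them). P-values measure the spread between separate pools of hearts. Paralog ratios used counts with 0.5 added and exact permutation tests (scipy 1.17.1). Correlations within a group also used exact permutation. The members, lists and tests were chosen with earlier results of these data known. Named genes were all members and paralogs, in each other list the 2 largest changes in each direction that passed, and the 3 genes most like rbfox1l and rbfox2 in log2 CPM (prior count 2). The labels give no batch. Replicates of a group differed beyond sampling noise, so all were kept. Alternatives were DESeq2 1.42.0, other scalings and filters, limma 3.58.1 on log2 FPKM, a replicate block and each library left out. The edgeR step was tested on simulated data. Primer sequences are from the study's supplement, and gene names, chromosomes, spans and overlaps from RefSeq GRCz12tu, whose coordinates are not printed. A further gene list is not reported here.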

Additional observations from a re-analysis of the deposited data

How the results depend on the processing

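The decreases of rbfox1l and rbfox2 and the difference in their ratio held under every alternative run, apart from rbfox2 scaled on cardiomyocyte markers (log2 fold change -0.61, adjusted p = 0.0654). The log2 fold change without each library in turn was -2.88 to -2.68 for rbfox1l and -1.64 to -1.39 for rbfox2. Scaling on cardiomyocyte markers left 1 member lower and 4 higher (mbnl1, mbnl2, celf1 and celf2), and scaling on endocardium and endothelium markers also made 4 higher. These scalings turned the sign of rbm24a (0.27 on the cardiomyocyte markers), rbfox1 (0.21 on the same), celf1 (0.81 and 0.48) and mbnl2 (0.85 and 0.54). They moved the median of all genes to 0.97 and 0.66. They called 159 genes lower and 8996 higher, and 374 lower and 7141 higher, compared with 1631 lower and 1553 higher by TMM. With library totals alone, 1170 genes were lower and 2608 higher, mbnl2 stood at 0.058, and 1 member was called by the study's rule. On log2 FPKM with 1 or 0.1 added, mbnl2 stood at 0.029 and 0.051, and 0 members were higher because celf2 has no FPKM.

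The study's rule called 2 members, 2 on cardiomyocyte markers (rbfox1l lower and celf1 higher, without rbm24a), 1 on endocardium and endothelium markers, 4 without the FPKM threshold (rbfox2 and celf2 added), and 1 to 2 when a library was left out. Members higher numbered 0 to 1 when a library was left out, and members lower 3 in every such fit. With the replicate number as a block, 0 members were higher, since celf2 just missed the threshold (0.74, adjusted p = 0.0541), and the ratio of celf1 to celf2 (-0.91) also missed it (exact sign-flip test, p = 0.0469, adjusted over 4 ratios p = 0.0938), while no other call changed. No pairing by number was seen: same-numbered pools correlated over 0.1 in 3 of 8 cases, and 0 of 8 DKO pools matched their own number best. Such correlations cannot exclude a pairing, because marker levels also differed between pools. DKO embryos were compared by the study with siblings of the same clutch. The 4 ratios kept their calls, adjusted over the 4, with 5 counts added and with each library left out. Low counts limit rbfox1, rbm24b and celf2. Reads carry no molecular identifiers.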
